A study of Homo sapiens with 8 samples.

Results

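The zinc finger genes of human chromosome 19 were examined in BEAS-2B, a human line that was immortalised from the epithelium of the bronchus, during exposure to nickel and after its removal. Members were the listed genes on chromosome 19 whose symbol is ZNF, a number and at most 1 further letter. This rule found 252 of the 25411 listed genes, of which 85 lie on the short arm (19p) and 167 on the long arm (19q). The symbol rule does not test for a KRAB domain, and 8 members carry the final letter P of a pseudogene symbol. RNA-Seq had been done on 8 libraries, 2 biological replicates in each of 4 groups. The untreated group (UT) served as control. In the exposed group (Ni-E) the medium had held NiCl2, which dissolves readily, at 100 µM over 6 weeks. The washed-out group (Ni-W) had gone through the same exposure and were then expanded from single colonies in medium without nickel for more than 6 months, so that Ni-W stands for 1 clonal population. The HCl3 cells carry the same treatment text as Ni-W in their labels, which give neither the time without nickel nor how the cells relate to Ni-W. Both Ni-E libraries are labelled experiment 2, the HCl3 libraries are labelled experiments 3 and 4, and UT and Ni-W carry no number, so the experiment and the group cannot be told apart.

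Most zinc finger genes on this chromosome encode KRAB zinc finger proteins, the largest family of human transcription factors. An array of C2H2 zinc fingers reads a DNA sequence, very often one within a transposable element, and the KRAB domain binds the corepressor TRIM28, which brings the histone methyltransferase SETDB1 and the HP1 proteins and so places H3K9me3 on the target. The genes arose by tandem duplication and stand in clusters, within which neighbours resemble each other in coding sequence and in promoter.

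Libraries held between 26383920 and 45692298 reads, and the members together took between 0.214 and 0.240% of them. A library had between 145 and 173 members at an RPKM (reads scaled by transcript length and by the mapped reads of the library) of at least 1, and 8 members had no read in any library. In each comparison, a gene was called at an adjusted p under 0.05 and a change of at least 1.5-fold in DESeq2 over all genes. Medians are given for the 220 members whose mean normalized count over the 8 libraries reached 20, beside the same for the 13035 genes of that level. The members differ from other genes in base composition, with a median GC content of 42.2% against 48.2% over all genes, and fold changes moved with GC content, with a Spearman's rho across all genes of 0.36 in Ni-E against UT and of -0.52 between the 2 UT libraries. Values once GC and length trends were removed are therefore set beside the medians. Between the 2 libraries of a group, the median difference over the members was from -0.06 to 0.04 on the log2 scale. Of the epithelial markers, KRT8 and KRT18 were high in every library (from 144 to 310 RPKM), while CDH1 was at 0.11 RPKM or less, KRT5 at 0.03 or less and the fibroblast collagen COL1A1 between 178 and 454. Of the leukocyte markers, CD3E had no read, PTPRC was at 0.04 RPKM or less, and CD14 was between 1.06 and 1.96 RPKM in UT and Ni-E and between 2.84 and 4.15 in Ni-W and HCl3 (log2 fold change against UT 1.28 and 1.23, adjusted p = 0.000596 and 0.000812). The summed level of 7 epithelial markers was between 579 and 794 RPKM in UT and Ni-E and between 935 and 996 in Ni-W and HCl3. The summed level of 3 endothelial markers was at most 0.11 RPKM and that of 4 fibroblast markers, with DCN at 0, was 338 to 390 in UT, 178 to 337 for Ni-E, 218 to 245 in Ni-W and 433 to 456 in HCl3. The part of these differences in the results was not tested.

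The level of the members was low. Reads with several alignments had been removed by the authors, so levels of near-identical members can be understated and are compared here between groups of libraries rather than between members. In each cluster, the member with the highest mean RPKM over the 8 libraries is given here. It was ZNF146 on 19q at 31.9 RPKM, followed by ZNF428 at 22.6, ZNF358 at 20.6 and ZNF787 at 20.3. In the other 5 clusters the leading member was at 6.71 (ZNF675), 6.41 (ZNF468), 4.77 (ZNF627), 2.59 (ZNF57) and 2.10 RPKM (ZNF302). ZNF146 consists of zinc fingers alone and overlaps ZNF565 on the opposite strand, and the strand of the reads was not stated to be used in counting. Of these leading members, ZNF787 was lower in Ni-W and in HCl3 than in Ni-E, and ZNF302 was called in all of the comparisons but HCl3 against Ni-W.

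In Ni-E against UT, 5 of the 224 members tested were called, and all 5 were lower. Over all genes 5.94% of those tested were called, with 3.84% higher and 2.1% lower, so the share of members called lower was near the background and no member was called higher, against 6 higher and 22 lower at an unadjusted p under 0.05. Without UT 1 the calls were instead 2 higher and 0 lower, and without each of the other libraries there were 0. The median log2 fold change of the members was -0.16, with 152 of 219 below 0, against -0.00 over all genes and 0.15 over the other genes of chromosome 19, of which 64 were called higher and 1 lower. Once GC and length trends were removed the median of the members was -0.11. The medians of all genes and of the other genes of chromosome 19 were not taken after that removal. The part of the trends in this contrast was not tested. In bulk RNA, fewer cells that express a gene and less of its RNA in each cell cannot be told apart.

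The 5 members called lower in Ni-E were ZNF829, ZNF302, ZNF542P, ZNF788 and ZNF780B. ZNF302 was at 1.00 and 0.88 RPKM in UT and at 0.29 and 0.45 for Ni-E (log2 fold change -1.39 ± 0.43 SE, adjusted p = 0.0173). ZNF788 was at 3.70 and 3.63 RPKM in UT and at 2.34 and 2.08 for Ni-E (-0.78 ± 0.19, adjusted p = 0.00110). ZNF542P was at 1.31 and 1.71 RPKM in UT and at 0.70 and 0.78 for Ni-E (-1.08 ± 0.30, adjusted p = 0.00479). In each of these the 2 groups did not overlap, which adds no support, since the members were picked for these calls. ZNF780B, an isolated member on 19q, was at 0.81 and 0.85 RPKM in UT and at 0.48 and 0.54 for Ni-E (-0.76 ± 0.24, adjusted p = 0.0209). ZNF829 rested on few reads, 43 and 26 in UT and 8 and 10 for Ni-E (-2.08 ± 0.73, adjusted p = 0.0407). None of these 5 calls held when any single library was left out, and ZNF829 and ZNF780B were not called once GC and length trends were removed (adjusted p = 0.0739 and 0.202).

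**Figure D1:**
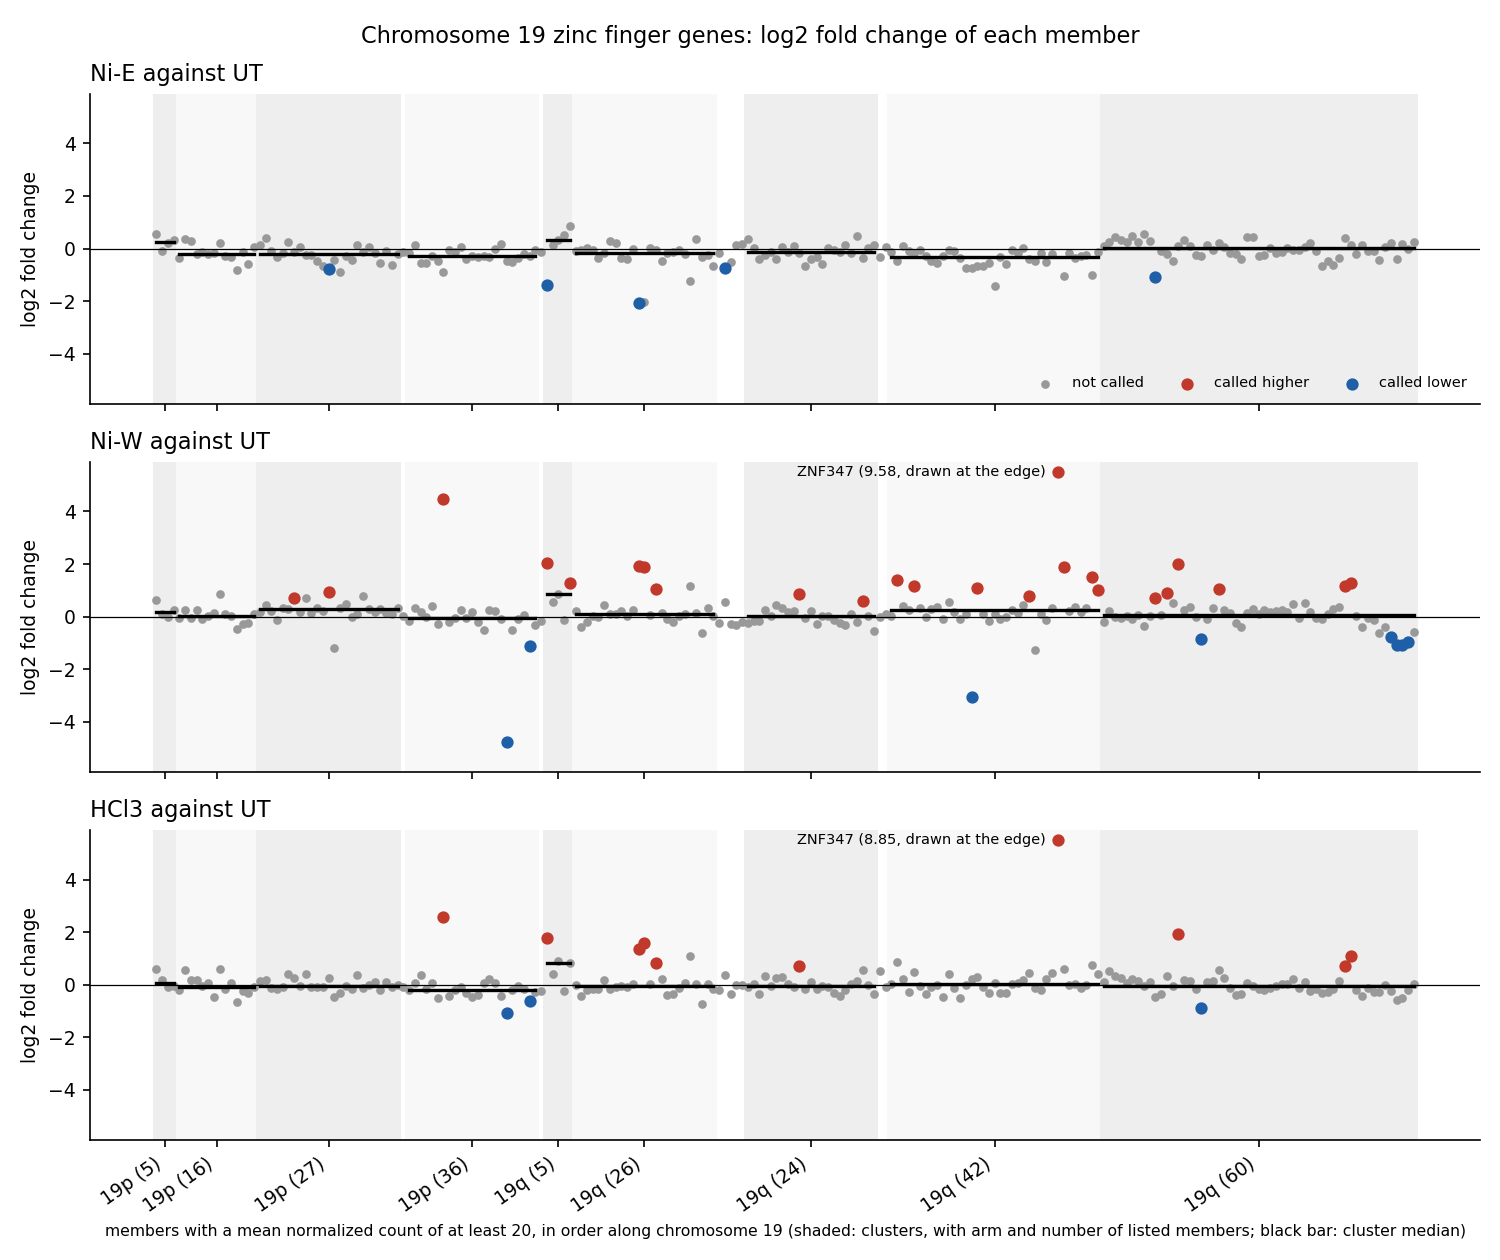
Log2 fold change (vertical axis) of the 220 members whose mean normalized count reached 20, in their order along chromosome 19, in Ni-E, Ni-W and HCl3 against UT. Red and blue points are members called higher and lower, grey points are not called, shading marks the 9 clusters, and black bars are cluster medians. In Ni-E all 5 called points lie below 0, whereas in Ni-W and HCl3 most called points lie above 0 and ZNF347 is drawn at the upper edge (9.58 for Ni-W and 8.85 for HCl3).

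After removal of nickel, single members changed by far more than the rest. In Ni-W against UT, 25 of 231 members tested were higher and 9 were lower, where the background over all genes was 16.1% called (11.1% higher and 4.95% lower), so the members' shares of 10.8 and 3.90% were near it. Their median was 0.11 (0.15 once GC and length trends were removed), against -0.02 over all genes. Of the 34 calls, 14 held without each of the 4 libraries in turn and 6 held without none of them. In HCl3 against UT, 14 of 232 were higher and 3 lower, against a background of 15.2% (11.4% higher and 3.84% lower). Of these 17 calls, 2 (ZNF302 and ZNF347) held without each library, and 6 (ZNF626, ZNF829, ZNF223, ZNF582, ZNF460 and ZNF256) were lost whichever library was left out. Only 3 members were called without HCl3 2, 4 without HCl3 1 and 9 without UT 2. The median in HCl3 was -0.06, and 0.05 after removal of the trends, so that its direction flipped. Both comparisons share the UT libraries with each other and with Ni-E. Of the calls against UT, 11 members were higher in both Ni-W and HCl3, 3 were lower in both, and 0 went the same way in all 3 comparisons with UT. Of the 233 members tested these were 4.72, 1.29 and 0%, and over all genes tested the shares were 7.8, 2.23 and 1.35%.

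ZNF347, in the cluster of 42 members on 19q, had no read in any UT or Ni-E library. It had 227 and 130 reads in Ni-W (1.04 and 0.88 RPKM) and 115 and 95 in HCl3 (0.67 and 0.54 RPKM). Against a floor of 3 reads in each UT library, ZNF347 was at least 45.9-fold higher in Ni-W (adjusted p = 3.04e-09) and at least 27.9-fold higher in HCl3 (adjusted p = 7.79e-08). Its neighbours on either side, ZNF415 and ZNF665, were at a mean of 0 and 0.00875 RPKM and were not tested. ZNF582, a gene known for promoter methylation in cervical cancer, showed the same pattern at a lower level and is named here after its values were seen. It had no read in UT or Ni-E, 31 and 28 reads in Ni-W and 14 and 12 in HCl3, which made it at least 7.93-fold higher in Ni-W (adjusted p = 0.000195) and at least 3.45-fold higher in HCl3 (adjusted p = 0.00886), the latter call not holding when any single library was left out. These were the 2 members (0.794% of 252) with no read in the 4 UT and Ni-E libraries and at least 10 in each Ni-W and HCl3 library, a pattern held by 25 genes of all (0.0984%), and 0 members had the reverse. The share of all genes with the reverse was not taken, so nothing is read from that 0.

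ZNF486, in the cluster of 36 members on 19p, showed a graded rise. It was at 0.05 RPKM in both UT libraries, 0.05 and 0.01 for Ni-E, 1.23 and 1.22 for Ni-W and 0.27 and 0.39 for HCl3. The log2 fold change was 4.48 ± 0.49 in Ni-W (adjusted p = 4.55e-18) and 2.56 ± 0.67 in HCl3 (adjusted p = 0.000789), and HCl3 was lower than Ni-W by a direct test (-1.92 ± 0.30, adjusted p = 1.18e-08). ZNF90, the member before it along the chromosome, did not pass the test in Ni-W (-0.27, adjusted p = 0.435). ZNF470, on 19q, was at 0.12 and 0.08 RPKM for UT, 0.08 and 0.15 for Ni-E, 0.36 and 0.45 for Ni-W and 0.41 and 0.37 for HCl3, so that Ni-W and HCl3 both stood above UT and Ni-E. Its log2 fold changes against UT were 2.00 ± 0.43 in Ni-W (adjusted p = 3.11e-05) and 1.92 ± 0.42 in HCl3 (adjusted p = 4.38e-05). The other members higher in both washed-out groups were ZNF302, ZNF829, ZNF568, ZNF585A, ZNF223, ZNF256 and ZNF606. Of these, ZNF585A, at 5.79 and 4.11 RPKM in UT, rose to 11.24 and 8.52 for Ni-W and 7.28 and 7.53 for HCl3 (1.03 and 0.81, adjusted p = 1.84e-06 and 0.000196).

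Another 14 members were called higher in Ni-W but not in HCl3 against UT. The share of all genes of this kind was not taken, so nothing is read from the count. Of all members tested, 10.8% were higher in Ni-W against UT, and of all genes 11.1%. Among the 14, 5 were also lower in HCl3 than in Ni-W by a direct test: ZNF788, ZNF350, ZNF528, ZNF677 and ZNF542P. ZNF677, reported as a target of promoter methylation in lung cancer, was at 0.10 and 0.17 RPKM in UT, 0.07 in both Ni-E libraries, 0.45 and 0.56 for Ni-W and 0.22 and 0.19 for HCl3. It rose by 1.91 ± 0.53 in Ni-W (adjusted p = 0.00206), and this call held without 1 of the 4 libraries only. ZNF350, also known as ZBRK1, a repressor that works with BRCA1, was at 1.71 and 1.68 RPKM for UT, 1.61 and 1.55 for Ni-E, 4.06 and 3.81 for Ni-W and 2.56 and 2.4 for HCl3. Its change was 1.18 ± 0.22 in Ni-W (adjusted p = 1.65e-06), and that of HCl3 against Ni-W was -0.68 (adjusted p = 0.00246), a call that did not hold when any single library was left out. ZNF350 overlaps HCCAT3 on the opposite strand.

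The members that fell in Ni-W were fewer and included some of the steepest changes. ZNF43 was at 1.07 and 1.12 RPKM for UT, 0.78 and 0.88 for Ni-E, 0.03 and 0.08 for Ni-W and 0.62 and 0.47 for HCl3. It fell by 4.77 on a log2 scale for Ni-W (SE 0.45, adjusted p = 1.24e-24) and by 1.06 in HCl3 (SE 0.26, adjusted p = 0.000268). No group overlapped another, in a member picked for its calls. ZNF681 fell by 1.14 in Ni-W (adjusted p = 2.11e-07) and by 0.61 in HCl3 (adjusted p = 0.00439), from 1.78 and 1.89 RPKM in UT to 0.81 and 0.91 and to 1.36 and 1.13. ZNF460, at 0.76 and 0.74 RPKM in UT and between 0.40 and 0.45 in Ni-W and HCl3, was the third member lower in both (-0.86 and -0.89, adjusted p = 0.0457 and 0.0326), but neither call held when any single library was left out. ZNF880 was at 0.51 and 0.59 RPKM for UT, 0.16 and 0.52 for Ni-E, 0.11 and 0.01 for Ni-W and 0.77 and 0.55 for HCl3. It fell by 3.08 in Ni-W (SE 0.76, adjusted p = 0.000378), with a range from -5.46 to -2.34 when single libraries were left out, and was higher in HCl3 than in Ni-W (3.29 ± 0.68, adjusted p = 3.25e-05), whereas its neighbour ZNF528, with its start 28.0 kb away, rose by 1.10 in Ni-W (adjusted p = 0.000961).

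**Figure D2:**
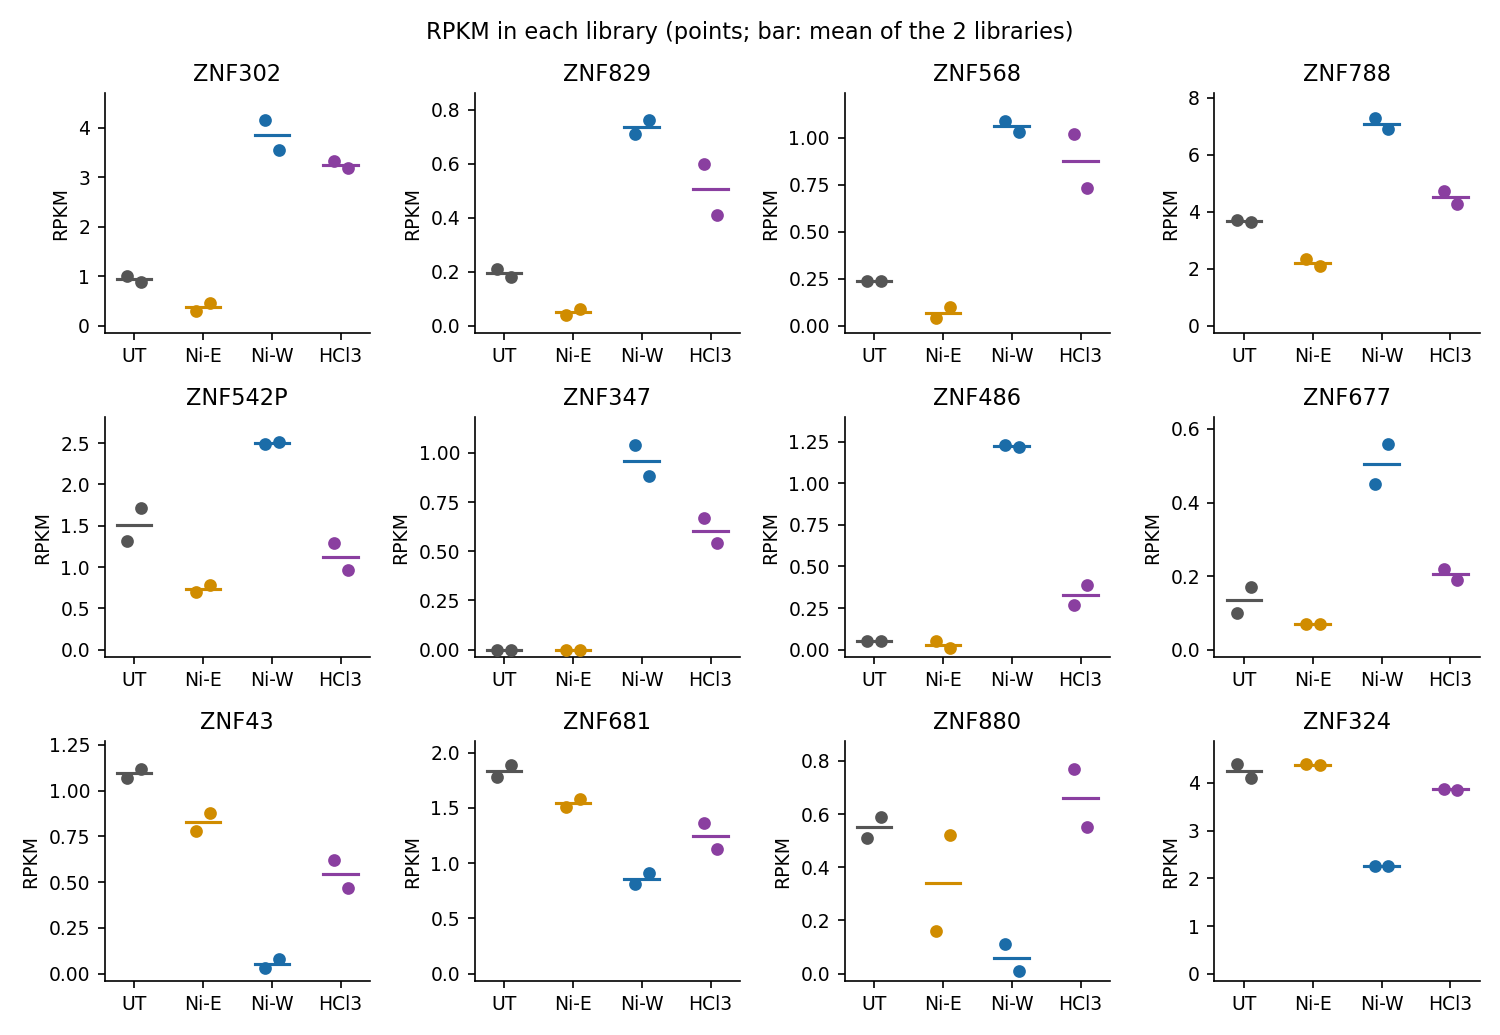
RPKM (vertical axis, from 0) of 12 members in each of the 8 libraries, with 2 points for each group and a bar at their mean. ZNF302, ZNF829, ZNF568 and ZNF788 are lowest in Ni-E and highest in Ni-W, ZNF347 is at 0 in UT and Ni-E, and ZNF43 lies at 0.03 and 0.08 RPKM in Ni-W.

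Between Ni-W and HCl3, 17 members differed, 9 higher and 8 lower in HCl3, of 229 tested (background 4.9% called, 3.18% higher and 1.72% lower). Most of these 17 calls were lost whichever library was left out. The median over the members was -0.16 (-0.09 once GC and length trends were removed), with 166 of 220 below 0, against -0.00 over all genes. Of the 9 members higher in HCl3, ZNF439, ZNF506 and ZNF626 were also higher in HCl3 than in UT and are named after their values were seen, since all are near the limit of detection. ZNF439 had 3 reads in each UT library, 9 and 0 for Ni-W and 24 and 40 for HCl3 (2.97 ± 0.92 against Ni-W, adjusted p = 0.0104). ZNF506 had 5 and 1 reads in UT, 7 and 5 for Ni-W and 27 and 32 for HCl3 (2.31 ± 0.78, adjusted p = 0.0231). ZNF626 had 1 read in each UT library and 1 and 0 in Ni-W but 15 in each HCl3 library, a ratio to UT of 12.3 with a 95% counting interval from 3.13 to 106. Their rise was thus seen in both HCl3 libraries, which had between 15 and 40 reads each. Against UT, the calls in ZNF439 and ZNF506 were lost for most of the libraries left out, and that in ZNF626 for any of them.

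Against UT, 4 members were called lower in Ni-E and higher in Ni-W or HCl3, with the UT libraries shared: ZNF302, ZNF829, ZNF788 and ZNF542P. All were called higher in Ni-W, but only ZNF302 and ZNF829 were also called higher in HCl3. ZNF302 went from 0.29 and 0.45 RPKM in Ni-E to 4.15 and 3.54 for Ni-W and 3.33 and 3.18 for HCl3, with UT between them. Against Ni-E, ZNF302 was higher by 3.42 ± 0.29 in Ni-W and by 3.15 ± 0.29 in HCl3. ZNF788 reached 7.28 and 6.90 RPKM in Ni-W and 4.73 and 4.27 in HCl3, and was higher than in Ni-E by 1.68 ± 0.16 and by 1.01 ± 0.17. ZNF542P reached 2.49 and 2.51 RPKM in Ni-W, and its HCl3 libraries, at 1.29 and 0.96, lay below both UT libraries. None of the Ni-E calls in these members held when any single library was left out. Of the members tested, 1.72% were of this kind, against 0.464% of all genes (73 genes). Since these members were chosen for being low in Ni-E and high after washout, their differences from Ni-E are descriptions.

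For Ni-W, the shift upwards was broader against Ni-E than against UT. In Ni-W against Ni-E, 43 of 232 members tested were higher (18.5%) and 11 lower (4.74%), where the background was 21% called, with 12% higher and 9.04% lower. The median was 0.24 (0.19 after removal of the trends) against -0.01 over all genes. It was -0.25, with the trends left in, over the other genes of chromosome 19, of which 48 were higher and 149 lower. In HCl3 against Ni-E, 24 were higher (10.3%) and 5 lower (2.16%), where the background was 17.6% called, with 10.6% higher and 6.95% lower. The share higher was thus near the background, and the median was 0.09 before and after removal of the trends. Zinc finger genes on other chromosomes, chosen by the same symbol rule, had a median of -0.08 in Ni-E against UT and 0.14 in Ni-W against Ni-E, where 42 of 240 were higher and 14 lower. Among the members called in Ni-W against Ni-E but not against UT was ZNF224, a repressor of the aldolase A gene (0.59 ± 0.23, adjusted p = 0.0280). ZNF274, which brings SETDB1 to the ends of zinc finger genes themselves, was lower in HCl3 than in Ni-E (-0.59 ± 0.13, adjusted p = 6.55e-05).

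Along the chromosome the members fell into 9 clusters, defined as chains of at least 5 members whose starts lie at most 1 Mb from the next, and 11 isolated members. Positions are in hg19. The cluster of 42 members at 52.1 to 54.1 Mb of 19q is described first. In Ni-E against UT its median was -0.31 (-0.19 after removal of the trends), with 34 of 36 members below 0 and 0 of 37 tested called. Over all members 152 of 219 were below 0, and over all genes 6592 of 13022. In Ni-W against UT the median was 0.24. Of 39 tested, 8 were higher (ZNF577, ZNF350, ZNF528, ZNF320, ZNF347, ZNF677, ZNF813 and ZNF331) and 1, ZNF880, was lower. These were 20.5 and 2.56%, where 11.1 and 4.95% of all genes were higher and lower, the background for each cluster in Ni-W against UT. In Ni-W against Ni-E the median was 0.45 (0.34 after removal of the trends), with 35 of 37 above 0. Over all members 156 of 220 were above 0, and over all genes 6394 of 13035. The 4 other genes of that level in this span had medians of -0.61 in Ni-E against UT, 0.20 in Ni-W against UT and 0.78 in Ni-W against Ni-E. The summed CPM (counts scaled to the total of the library) of this cluster were 298 and 313 in UT, 259 and 277 for Ni-E, 383 and 372 for Ni-W and 325 and 304 for HCl3, so that the Ni-W libraries stood above all others and the Ni-E libraries below.

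The cluster of 27 members at 11.6 to 12.7 Mb of 19p moved in the same order, with summed CPM of 140 and 147 in UT, 126 and 135 for Ni-E, 189 and 182 for Ni-W and 154 and 149 for HCl3. Its median was -0.21 for Ni-E, 0.29 for Ni-W and -0.07 for HCl3, the last turning to 0.09 after removal of the trends. The 3 other genes of that level in this span had medians of 0.14, -0.45 and -0.37 in the same order. Only ZNF440 and ZNF788 were called in Ni-W against UT, both higher. The 5 members at 35.2 to 35.5 Mb of 19q summed to 12.7 and 11.3 CPM for UT, 13.3 and 15.1 for Ni-E, 27.7 and 23.2 for Ni-W and 22.0 and 22.3 for HCl3, so that all Ni-W and HCl3 libraries stood above UT and Ni-E. These sums include ZNF302, the member with the highest mean RPKM here (2.10), described above for its rise. They were not taken without it, so a rise of the cluster as a whole is not read from them. ZNF302 and ZNF792 (1.29 ± 0.37, adjusted p = 0.00227) were higher in Ni-W against UT. The other 3, ZNF181 (0.55, adjusted p = 0.147), ZNF599 (0.86, adjusted p = 0.120) and ZNF30 (-0.13, adjusted p = 0.810), did not pass the test. The ZNF792 call held without 1 of the 4 libraries only.

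The cluster of 60 members at 56.0 to 59.0 Mb, which ends the long arm, had a summed level between 577 and 662 CPM in all 8 libraries. Here the Ni-E libraries, at 637 and 662 CPM, stood above all others. The summed levels were not corrected for GC and length, and the part of these trends in that order was not tested. Its medians were 0.00, 0.08 and -0.06 for Ni-E, Ni-W and HCl3 against UT, and -0.03, 0.08 and -0.12 once both trends were removed. Its calls in Ni-W went both ways, 7 higher and 5 lower. The clusters at 2.8 to 2.9 Mb and 7.1 to 9.9 Mb of 19p had 0 members called in any of the 6 comparisons, at 4 and 14 members tested, and medians against UT between -0.19 and 0.26. The cluster at 44 to 45.6 Mb had 2 members higher in Ni-W against UT (ZNF223 and ZNF229) and 0 lower. No test of a difference between clusters was made.

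**Figure D3:**
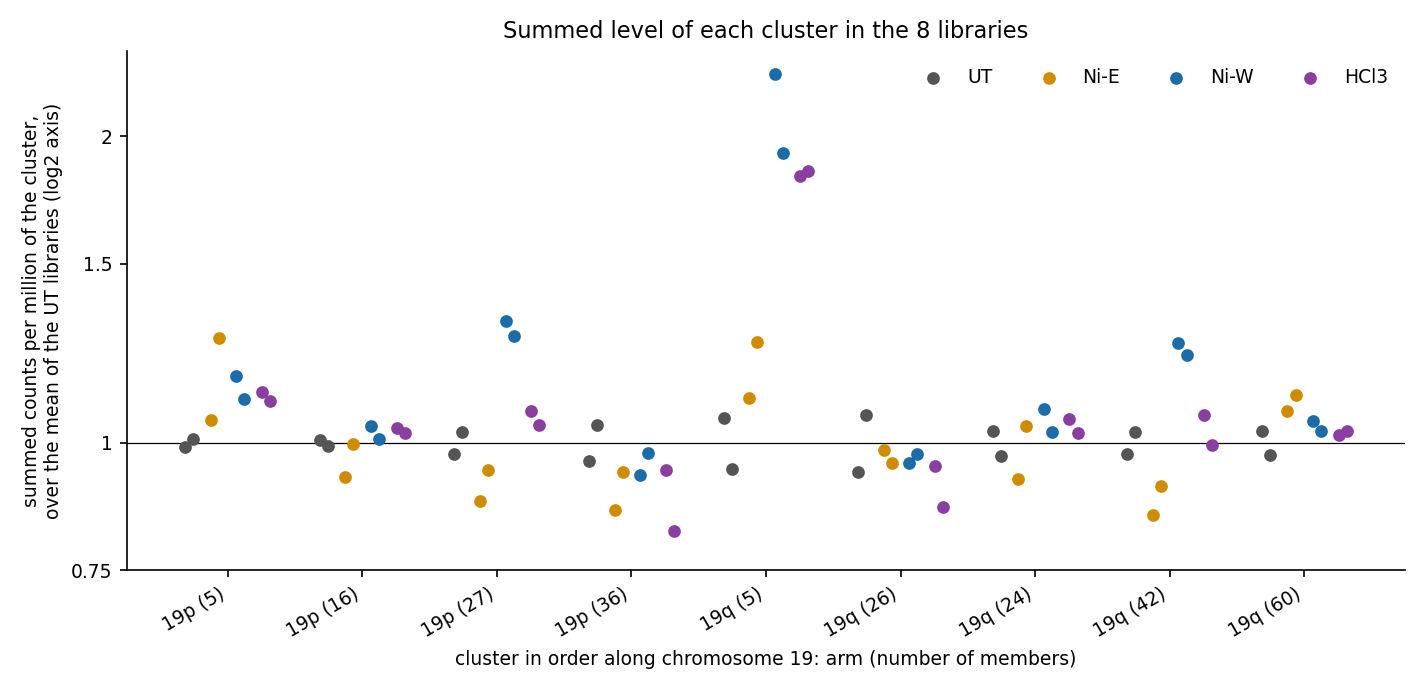
Summed CPM of each cluster in each library, divided by the mean of the 2 UT libraries (vertical log2 axis), with clusters in order along chromosome 19 named by arm and number of members. Ni-W libraries lie highest in the clusters of 27 and 42 members and, with HCl3, in the 19q cluster of 5, whose sum includes ZNF302. In the cluster of 60 members the Ni-E libraries lie highest. The sums are not corrected for GC and length trends.

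The cluster of 36 members at 19.8 to 24.3 Mb of 19p held the members with the largest called falls in Ni-W against UT, ZNF43 and ZNF726, and a called rise in ZNF486. Of 26 tested in Ni-W against UT, ZNF486 was higher and ZNF43, ZNF681 and ZNF726 were lower, and 13 of its members had a mean normalized count under 20. ZNF726, named after its values were seen, had 25 and 12 reads in UT and 1 in each Ni-W library (a ratio of 22.8, 95% counting interval from 5.89 to 196) and 14 and 15 in HCl3. ZNF726 is the next member after ZNF681, so that these adjoining members were both lower in Ni-W, though the ZNF726 call held without 1 of the 4 libraries only. On the other side of ZNF681, ZNF675 was not called in Ni-W or HCl3 against UT, nor were ZNF90 before ZNF486 and ZNF100 before ZNF43. ZNF91 and ZNF93, known repressors of SVA and L1 retrotransposons, lie in this cluster as well. ZNF91 was at 1.94 and 2.27 RPKM for UT, 1.74 and 1.66 for Ni-E, 2.02 and 1.98 for Ni-W and 2.20 and 1.99 for HCl3. ZNF93 was at 2.63 and 2.97, 1.91 and 2.09, 3.02 and 2.59, and 2.70 and 2.48 RPKM in the same order, and neither was called in any comparison.

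The promoters of the 4 members of this cluster with the largest changes are shown because they are close copies of each other, a comparison made after the values were seen. Each is the 250 bases before the RefSeq start of the gene, 5′ to 3′ on its own strand, in GRCh38.p14, at chr19:20166964-20167213 (plus strand) for ZNF486, chr19:21836183-21836432 (minus) for ZNF43, chr19:20661572-20661821 (minus) for ZNF626 and chr19:23914636-23914885 (plus) for ZNF726. Capitals mark CCAATC, the CCAAT box with 1 further base, and CCGGAAG, the core read by ETS factors, or the complement of either on the other strand, GATTGG and CTTCCGG. In the sequences shown these matches do not overlap.
ZNF486: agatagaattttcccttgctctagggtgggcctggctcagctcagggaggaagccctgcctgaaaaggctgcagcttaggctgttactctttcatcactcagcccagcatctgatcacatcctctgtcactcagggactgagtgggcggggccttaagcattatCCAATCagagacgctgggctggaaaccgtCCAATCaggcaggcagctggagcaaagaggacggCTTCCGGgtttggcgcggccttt
ZNF43: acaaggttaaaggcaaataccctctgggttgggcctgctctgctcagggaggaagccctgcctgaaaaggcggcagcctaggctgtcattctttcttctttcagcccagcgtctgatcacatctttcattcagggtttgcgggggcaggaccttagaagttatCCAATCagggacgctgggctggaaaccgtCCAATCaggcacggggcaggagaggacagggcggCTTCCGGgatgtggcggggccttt
ZNF626: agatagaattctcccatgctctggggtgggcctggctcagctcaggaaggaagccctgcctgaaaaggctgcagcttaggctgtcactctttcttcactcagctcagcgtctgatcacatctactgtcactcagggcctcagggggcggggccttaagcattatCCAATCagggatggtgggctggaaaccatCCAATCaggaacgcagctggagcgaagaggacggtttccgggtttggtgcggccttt
ZNF726: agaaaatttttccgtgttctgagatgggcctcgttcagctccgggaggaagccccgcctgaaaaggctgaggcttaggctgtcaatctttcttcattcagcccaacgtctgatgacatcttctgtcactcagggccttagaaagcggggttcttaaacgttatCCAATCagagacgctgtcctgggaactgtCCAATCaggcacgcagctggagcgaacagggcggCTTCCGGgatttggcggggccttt

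The ZNF486 promoter was 91.2% identical to that of ZNF626, 83.9% to that of ZNF726 and 79.5% to that of ZNF43 in a global alignment, against 50.7% to that of ZNF347. ZNF486 rose in Ni-W and HCl3, ZNF43 fell in both, ZNF726 fell in Ni-W and ZNF626 rose in HCl3. The part of the promoter sequence in these changes was not tested. All 4 carry CCAATC at a pair of sites, and all but ZNF626 carry CTTCCGG between that pair and the start. In this cluster 16 of the 27 members with a promoter in the table had at least 2 CCAATC on their own strand, against 297 of 27305 promoters in all (1.09%), and 10 of the 16 also held CTTCCGG. The pair was not particular to this cluster: 4 of 5 promoters held it in the cluster at 2.8 to 2.9 Mb of 19p, where no member was called in any comparison, and 2 of 24 in that at 11.6 to 12.7 Mb. Of these 16, ZNF486, ZNF43 and ZNF726 were called in Ni-W against UT, and the others included ZNF85, ZNF430, ZNF714 and ZNF675, whose changes in Ni-W lay between -0.07 and 0.23 with no call.

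Over all members, 213 of 252 had a promoter in the table, with a median of 16 CpG in 250 bases against 11 in all promoters, and 85.9% held at least 10 CpG against 51.9%. CCGGAAG, on either strand, was found in 31.5% of the members' promoters and in 8.82% of all, and CCAATC in 32.4% and 14.6%. TGACGTCA, the cyclic AMP response element, was found in 2.35% against 1.77%, and TTTCCCGC, a letter form of the E2F site, in 1.41% against 1.42%. Among the 37 members with a promoter that were higher in Ni-W than in Ni-E, 13 held CCGGAAG and 11 held CCAATC. A match is a description of the letters only. The promoter of ZNF347, the gene without reads in UT and Ni-E, and that of ZNF302 are shown as members that rose outside that cluster, at chr19:53159054-53159303 (minus strand) and chr19:34677428-34677677 (plus strand) with the same marking. That of ZNF347 held 19 CpG and neither motif, and that of ZNF302 held 24 CpG and 1 ETS core.
ZNF347: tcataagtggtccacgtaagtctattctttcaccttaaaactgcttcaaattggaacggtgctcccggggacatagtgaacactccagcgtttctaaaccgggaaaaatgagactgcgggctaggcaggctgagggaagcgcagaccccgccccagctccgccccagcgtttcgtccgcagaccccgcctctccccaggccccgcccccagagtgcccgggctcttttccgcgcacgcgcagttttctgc
ZNF302: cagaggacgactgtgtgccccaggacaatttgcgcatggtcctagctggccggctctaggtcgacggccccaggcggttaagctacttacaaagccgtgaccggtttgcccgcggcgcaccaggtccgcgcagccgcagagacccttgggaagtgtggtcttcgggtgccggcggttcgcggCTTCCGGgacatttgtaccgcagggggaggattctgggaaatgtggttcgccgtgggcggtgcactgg

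ZNF829 and ZNF568, a divergent pair picked out after its values were seen, moved together. ZNF568 is the human counterpart of a mouse gene that silences a placental promoter of Igf2. In the hg19 listing their starts lie 38 bases apart on opposite strands, and in RefSeq on GRCh38.p14 the 40 bases between the starts, chr19:36916292-36916331, hold 1 ETS core, in capitals in this plus-strand sequence.
ZNF829 and ZNF568: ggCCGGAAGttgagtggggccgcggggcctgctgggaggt

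ZNF829 was at 0.21 and 0.18 RPKM for UT, 0.04 and 0.06 for Ni-E, 0.71 and 0.76 for Ni-W and 0.60 and 0.41 for HCl3. ZNF568 was at 0.24 in both UT libraries, 0.04 and 0.10 for Ni-E, 1.09 and 1.03 for Ni-W and 1.02 and 0.73 for HCl3. In both, every Ni-E library lay below UT and every Ni-W and HCl3 library above it. The log2 fold changes of ZNF829 and ZNF568 were -2.08 and -2.02 for Ni-E (the latter not called, adjusted p = 0.0710), 1.91 and 1.88 in Ni-W (adjusted p = 2.91e-06 and 7.67e-06) and 1.34 and 1.6 in HCl3 (adjusted p = 0.00597 and 0.000454). ZNF829 also overlaps ZNF345 on the opposite strand, whose change in Ni-W was 0.27 (adjusted p = 0.596), and ZNF420, the next member after ZNF568, changed by 0.05. Among the 6 pairs of members with divergent starts within 1000 bases, the signs of both genes agreed in 5 pairs for Ni-E against UT, in 3 for Ni-W and in 3 for HCl3, and neither gene was called in these comparisons in any of the other 5 pairs. ZNF582, described above, also shares its start region with ZNF582-AS1, 156 bases away, whose change in Ni-W was 3.30 and did not pass the test (adjusted p = 0.0907).

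At the distal end of 19q, adjacent members were lower in Ni-W together. This stretch of 15 listed genes, with its first start at 58907457 and its last end at 59095762 (hg19), was chosen after the calls had been seen. ZNF584 was at 9.10 and 9 RPKM for UT, 11.78 and 9.92 for Ni-E, 5.60 and 5.34 for Ni-W and 8.07 and 7.64 for HCl3 (-0.76 ± 0.16 in Ni-W against UT, adjusted p = 1.09e-05). ZNF324 was at 4.39 and 4.11, 4.4 and 4.37, 2.25 in both, and 3.88 and 3.85 RPKM in the same order (-0.95 ± 0.18, adjusted p = 2.38e-06). ZNF324B, its close paralogue, fell by 1.09 (SE 0.24, adjusted p = 5.57e-05) and ZNF132 by 1.07 (SE 0.37, adjusted p = 0.0163), the latter not holding when any single library was left out. ZNF446, the last member, was at -0.57 in Ni-W and did not pass the test (adjusted p = 0.0694).

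Over all genes tested, 4.95% were called lower in Ni-W against UT. Of the 8 other genes of this stretch whose mean normalized count reached 20, 4 were called lower in that comparison and 0 higher. Their median was -0.61 against -0.95 for the 5 members. The 4 were TRIM28, the corepressor of the KRAB proteins, UBE2M, a conjugating enzyme for NEDD8, ZBTB45 and CENPBD1P1, while CHMP2A, at -0.58, passed the p but fell just short of the fold threshold. TRIM28 was at 205 and 202 RPKM for UT, 213 and 211 for Ni-E, 117.5 and 120.51 for Ni-W and 189.59 and 197.40 for HCl3 (-0.81 in Ni-W, adjusted p = 4.45e-16), so that both Ni-W libraries stood below all others. In HCl3 against UT, 0 of the 5 members and 0 of the 8 others were called, with medians of -0.26 and -0.17 (-0.39 and -0.41 once GC and length trends were removed). HCl3 was directly higher than Ni-W in 2 members (ZNF324 and ZNF446) and 4 of the others, where 3.18% of all genes tested were higher. Since the stretch was picked for its calls, nothing is read from these counts. Removing both trends left the Ni-W medians at -1.03 and -0.59. The copy number of this stretch was not measured, and its part in these values was not tested.

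**Figure D4:**
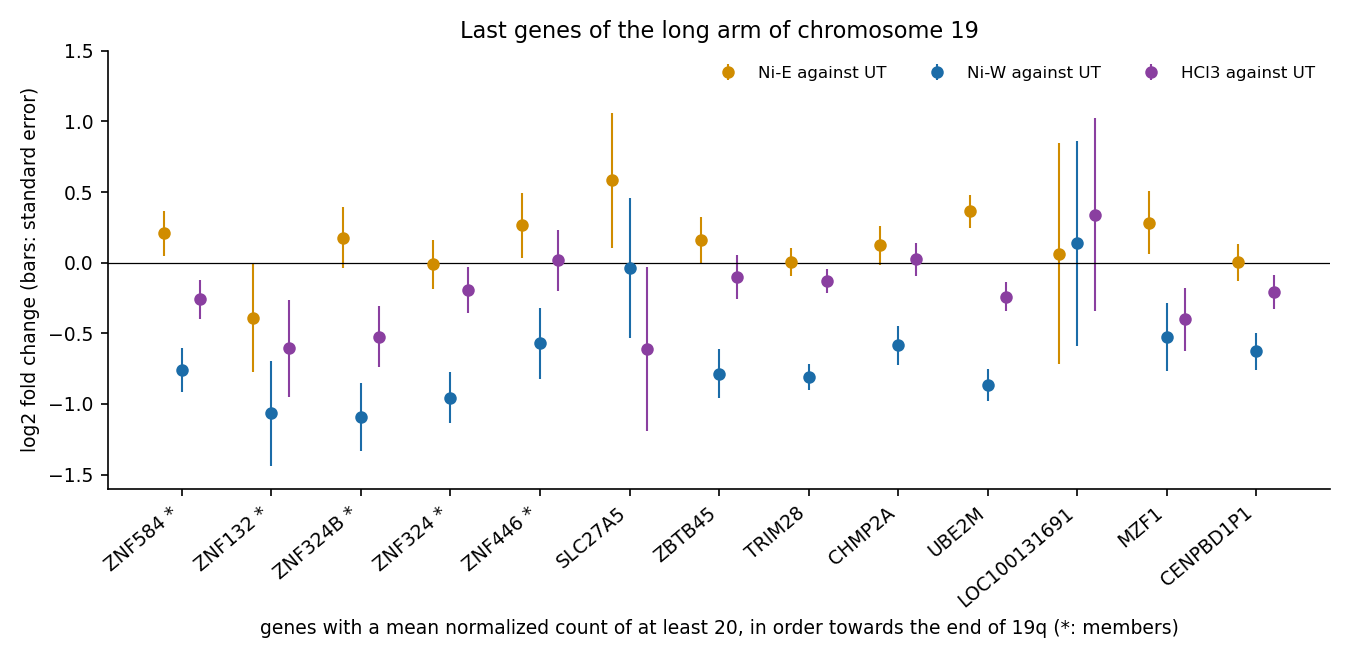
Log2 fold change against UT (points, with standard errors as bars) of the 13 genes at the distal end of 19q whose mean normalized count reached 20, in their order towards the end, with members starred. The Ni-W points lie below 0 in 12 of the 13 genes, between -1.09 and 0.14, while the Ni-E and HCl3 points were not called in any of them.

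Of a list of 14 genes of the machinery through which KRAB zinc finger proteins act, all 14 were tested, 0 were called in Ni-E or HCl3 against UT, and 1, TRIM28 (7.14% of the list), was called in Ni-W. The shares over all genes were 5.94, 15.2 and 16.1% in Ni-E, HCl3 and Ni-W, so nothing is read from these counts. The median of the list was -0.13 for Ni-E, 0.17 for Ni-W and -0.02 for HCl3. SETDB1 was at 9.21 and 8.62 RPKM in UT and 11.83 in both Ni-W libraries (0.41, adjusted p = 0.00374, under the fold threshold). CBX3, an HP1 protein, was at 75.16 and 80.02 RPKM in UT and 107.58 and 111.29 in Ni-W (0.46, adjusted p = 4.77e-05), also under the threshold.

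Of the 252 members, 65 were called in at least 1 of the 6 comparisons, 38 of them against UT, and 187 in none, among them the 8 without reads. Of the 233 members tested in at least 1 comparison, 27.9% were called in any of the 6 and 16.3% in any of the 3 against UT, and over all genes tested the shares were 31.4 and 23.2%. A mean normalized count under 20 was found in 32 members, which include these 8, and small changes in them were not detectable at this depth.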

How the data were processed

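RNA-Seq of BEAS-2B cells was deposited as 1 gene table per library. Per the study's methods and the submitters' processing notes, the authors used STAR 2.4 with hg19, discarded multi-mapped reads and summed the rest per RefSeq gene in BioWardrobe. The deposited columns used are raw counts and RPKM. Use of strand was not stated. Counts were fitted with DESeq2 1.42.0, one pair of groups at a time (n = 2 each), and adjusted by Benjamini-Hochberg over all genes tested; a call needed an adjusted p under 0.05 and 1.5-fold. Groups of 2 allow no exact permutation p under 0.05, and the p-values rest on a spread pooled over genes. Alternatives were edgeR 4.0.16, limma 3.58.1 (log2 of RPKM plus a pseudocount of 1 or 0.1), other filters, a replicate block, removal of GC and length trends, and each library left out. The members named were, in each comparison, the 5 with the largest called change each way at a mean normalized count of at least 20, the member of highest mean RPKM in each cluster, and those called in the same direction in all 3 comparisons with UT or in opposite directions in 2; other members, such as neighbours, promoter copies and those of known role, were picked after values were seen. The members and lists were chosen with earlier results of these data known. On simulated counts of 25411 genes for Ni-W against UT, DESeq2 recovered 93 of 99 genes changed by 2-fold and 101 of 101 changed by 4-fold, with 1 false call. With a GC trend planted in the same simulation it made 2486 false calls and recovered 81 of 99 and 100 of 101, and with correction for GC and length 2 false calls, 92 of 99 and 101 of 101. In these simulations the changed genes were drawn only from genes above a minimum mean count, and every gene was given the same spread between replicates. Recovery of genes with few reads or a larger spread, as in several members named here, was not simulated. Promoters came from RefSeq on GRCh38.p14, and hg19 positions were not converted. Intervals and floors cover counting error only. Genome sequence of hg19 was not used here. 1 leukocyte marker is not reported here.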

Additional observations from a re-analysis of the deposited data

Results flagged for a closer look

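The 4 members called lower in Ni-E and higher in Ni-W against the shared UT libraries stood out because their change had opposite signs in these groups. In HCl3, only ZNF302 and ZNF829 among them were called higher than in UT. They were chosen on the same libraries, so their differences from Ni-E, fitted with DESeq2, are given as descriptions and not as independent tests. In Ni-W against Ni-E, ZNF829 was higher by 3.98 log2 units (SE 0.49), ZNF302 by 3.42 (SE 0.29), ZNF542P by 1.75 (SE 0.24) and ZNF788 by 1.68 (SE 0.16). In HCl3 against Ni-E, ZNF829 was higher by 3.40 (SE 0.55) and ZNF302 by 3.15 (SE 0.29). Groups of 2 libraries could not be examined for single samples far from the rest.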

How the results depend on the processing

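No called change of a named member turned its sign under the settings tried, but the balance of calls did turn. In Ni-E against UT, where 5 were called, the count was 9 with no fold threshold, 10 with edgeR, 11 with all 8 libraries in 1 fit, 0 with limma at either pseudocount, 3 after correction for GC and length, and 0 to 2 with single libraries left out (2 without UT 1, both higher where the 5 were all lower, and 0 without each other). The medians with limma were -0.056 at a pseudocount of 1 and -0.10 at 0.1. In Ni-W against UT limma at a pseudocount of 1 called 14, and leaving out libraries gave 16 to 27 (18 without Ni-W 1, 16 without Ni-W 2), with medians of 0.11 to 0.14, and 0.15 after removal of the trends. In HCl3 against UT the count was 29 with no fold threshold, 4 with limma at 1, and 3 to 16 with libraries left out (9 without UT 2, 4 without HCl3 1, 3 without HCl3 2). Its median was -0.0007 with limma at 1, 0 at 0.1, 0.0508 after removal of the trends and from -0.07 to -0.02 with libraries left out.

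In Ni-W against Ni-E limma at 1 called 22, and libraries left out gave 25 to 42 (34 without Ni-E 1, 27 without Ni-W 1, 25 without Ni-W 2), with medians of 0.15 with limma at 1 and 0.19 after removal of the trends. In HCl3 against Ni-E limma at 1 called 6, and libraries left out gave 10 to 25 (10 without HCl3 1, 13 without HCl3 2), with medians of 0.0652 to 0.14. In HCl3 against Ni-W, with 9 higher and 8 lower, the split was 14 and 17 with no fold threshold, 8 and 11 with edgeR, 6 and 10 at a mean count of at least 10, and 3 and 0 with limma at 0.1. The count was 31 with no fold threshold, 1 and 3 with limma at 1 and 0.1, and 4 to 10 with libraries left out (10 and 6 without Ni-W 1 and 2, 4 and 5 without HCl3 1 and 2). Its medians were -0.076 with limma at 1, -0.0897 after removal of the trends and -0.18 to -0.10 with libraries left out. Where a library was left out, the lone library of its group was assumed to vary like the others. The cause of these differences was not tested.

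With the replicate block the counts were 1 in Ni-E and 7 in HCl3 against UT, 33 in Ni-W against Ni-E and 6 in HCl3 against Ni-W. With the block and the removal of trends they were 0 in Ni-E against UT, 28 in Ni-W against Ni-E, 17 in HCl3 against Ni-E and 5 in HCl3 against Ni-W, with medians of 0.16 in Ni-W and 0.0494 in HCl3 against UT, 0.19 in Ni-W against Ni-E and -0.0903 in HCl3 against Ni-W. The correlation of deviations of same-numbered libraries was between -0.145 and 0.212 over 13856 genes, so with 2 pairs the libraries share only a number. A crossed block, added after seeing the data, gave 2 calls in Ni-E and 10 in HCl3 against UT.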
